A study of Mus musculus with 4 samples.

Results

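The input library of MDER 10T cells was read as a map of how many copies of each stretch of the genome the cells hold. Input, labelled WCE for whole-cell extract, is 1 of the 4 libraries of the series and was chosen by its label. The other 3 are chromatin immunoprecipitations for H3K4me3, H3K27me3 and H3K9me3 from cells of the same name, with 1 library each. MDER 10T cells are fibroblasts of the mouse, and the title of the series gives them MyoD1, a master regulator of muscle, in a form that estrogen induces. All 4 libraries carry that transgene, all came from cells in DMEM/F12 with no phenol red and with FCS, and no estrogen treatment is named for any of them. The labels do not say whether the cells are 1 clone, which promoter drives the transgene, how many copies of each chromosome the line has, or whether cultures were pooled. There are no replicates, so no spread between cultures can be given and no test was made. The intervals below cover counting error only, and reads amplified by PCR without molecular identifiers are not independent molecules.

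Input DNA is sheared chromatin that skips the antibody step, so that reads are drawn from the whole genome. A stretch present in more copies yields more reads in input and, by the same factor, in each library made from the same cells. In a genome with 2 copies of every autosome, 1 added copy in every cell would multiply the reads by 1.5. Reads per stretch depend on other things as well: base composition acts through shearing, PCR and sequencing, open chromatin shears more easily, and sequence that occurs many times in the genome cannot be placed. These act on input and on immunoprecipitated DNA, and they need not act with the same strength in each.

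Reads with 1 reported position on the autosomes were counted once for each position and strand, in tiles of 1 Mb and of 100 kb. The input library held 2977697 such reads, against 3086567 for H3K4me3, 2933567 for H3K27me3 and 2101444 for H3K9me3. All coordinates are mm8 and count from 1. No mm8 sequence or gene annotation was used, so base composition was not measured, no position was assigned to a gene and no cell type marker could be read. Of 2453 whole 1 Mb tiles, 57 lie before the first read of their chromosome and were set aside as unmapped starts, not losses. A further 119 tiles, in which under 90% of the 10 kb bins held a read of any library, were also left out. The 2277 usable tiles held a median of 1200 input reads, with a 10th percentile of 583, a 90th percentile of 2054, a lowest value of 244 and a highest value of 4412.

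Input varied far more along the autosomes than counting error allows, and the marks varied with it. The standard deviation of log2 reads per 1 Mb tile was 0.70 in input, 1.34 in H3K4me3, 1.11 in H3K27me3 and 0.86 in H3K9me3. In 100 kb tiles, with a median of 116 input reads, the variance of the input counts was 43.1 times their mean, where counting error alone gives 1. Across the 2277 tiles the log2 level of input had a Pearson r of 0.94 with H3K4me3, 0.97 with H3K27me3 and 0.95 with H3K9me3. These correlations describe tiles that share base composition, mappability and genome across the 4 libraries, and neighbouring tiles are not independent. A rise of 1 log2 unit in input went with a rise of 1.797 in H3K4me3, 1.53 in H3K27me3 and 1.18 in H3K9me3, whereas a difference in copy number alone has a slope of 1.

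Each input level is therefore also given after adjustment. Ratios between libraries lose copy number, because it multiplies both, so the log2 input level was regressed across tiles on such ratios and the fitted part was subtracted. With the ratios H3K4me3 to H3K9me3 and H3K27me3 to H3K9me3, called here the adjustment between marks, 49.2% of the variance of input was fitted and the standard deviation fell to 0.50. With the 3 ratios of a mark to input, 69.7% was fitted and the standard deviation fell to 0.39. The second adjustment was added after seeing the data, and its ratios contain the input count itself. Both remove what the marks' ratios share with input whatever its origin, and either can leave part of it behind.

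The autosomes stood at unequal levels, and chromosomes 19, 11 and 8 were the highest. Chromosome 19 had a median of 1876 input reads per 1 Mb tile, which is 1.56 times the autosomal median, with a mean of 1897 and an exact Poisson interval (95%) of 1886 to 1909. Chromosome 11 had 1666.5 reads, 1.39 times the median, and chromosome 8 had 1606.5, 1.34 times. Chromosomes 17, 9, 2 and 15 followed at 1.24, 1.23, 1.21 and 1.16 times the median. Chromosomes 18 and 10, both at 1.08, 12 and 6, both at 1.01, 7 at 0.97, 14 at 0.94 and 13 at 0.90 lay nearest to it. Chromosomes 5 and 4 had 0.89 and 0.88 of the median, and chromosomes 3, 1 and 16 were the lowest at 0.79, 0.79 and 0.76, with 952, 948.5 and 906 reads. Even the ends of this order overlap tile by tile: the 10th to 90th percentile of tiles was 1084 to 2773 reads on chromosome 19 and 486 to 1587 on chromosome 16.

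**Figure D1:**
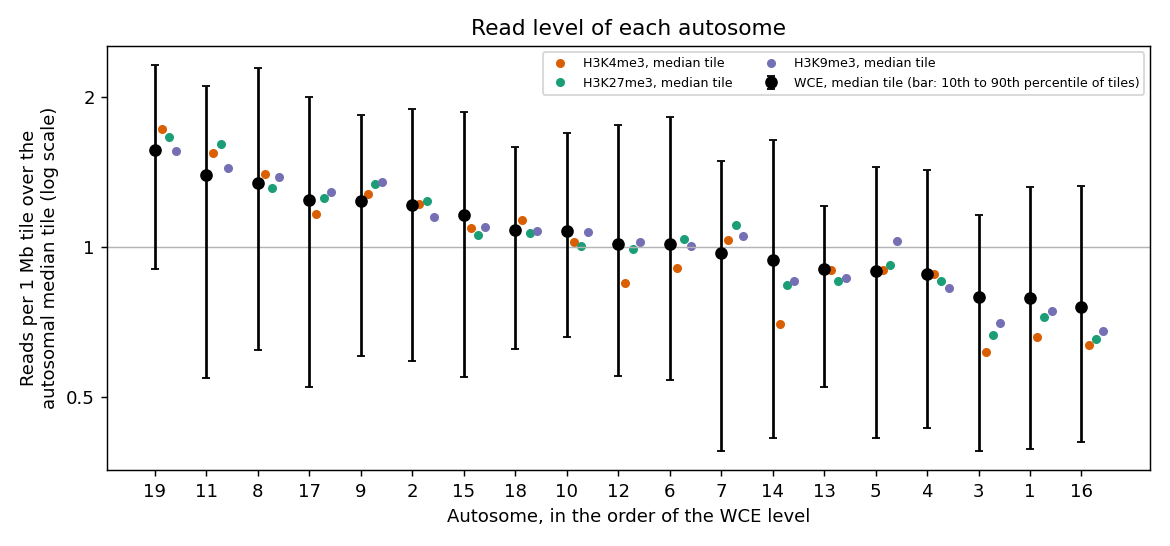
Median reads per 1 Mb tile of each autosome over the autosomal median of the same library (vertical axis, log scale), with autosomes in the order of input (black, bars from the 10th to the 90th percentile of tiles) and the 3 marks as coloured points. Chromosome 19 is highest in every library, and the highest and lowest autosomes lie further apart in each mark than in input.

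The marks placed the chromosomes in much the same order, with a larger difference between the highest and the lowest. Chromosome 19 over chromosome 16 was 2.07 in input, 2.54 in H3K27me3 and 2.30 in H3K9me3, and the widest pair in H3K4me3 was chromosome 19 over chromosome 3, at 2.81. All 3 marks lay on the same side of their median as input for 15 of the 19 autosomes. The exceptions were chromosomes 5, 6, 7 and 12, each between 0.89 and 1.01 in input. Forward and reverse reads, counted apart, gave levels that differed by a factor of at most 1.04 on any autosome. Chromosome X, outside the autosomal map, had a median of 411 input reads over 137 usable tiles, 0.343 of the autosomal median, against 0.250, 0.238 and 0.265 in H3K4me3, H3K27me3 and H3K9me3.

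Adjustment drew the autosomes together without removing their differences. With the adjustment by mark to input ratios, 7 autosomes (1, 3, 4, 5, 7, 13 and 16) had median log2 levels from -0.28 to -0.20. A group of 8 (2, 6, 9, 10, 12, 15, 17 and 18) lay from 0.10 to 0.17, with chromosome 8 at 0.32 and chromosome 19 at 0.40. Chromosomes 14 and 11, at 0.03 and 0.04, fell between these groups. On chromosome 19 the level was above 0 in 89.3% of tiles, on chromosome 8 in 82.8%, on chromosome 3 in 19.2% and on chromosome 7 in 16.4%. The highest level over the lowest became 1.61, chromosome 19 over chromosome 3, and 1.92 with the adjustment between marks.

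**Figure D2:**
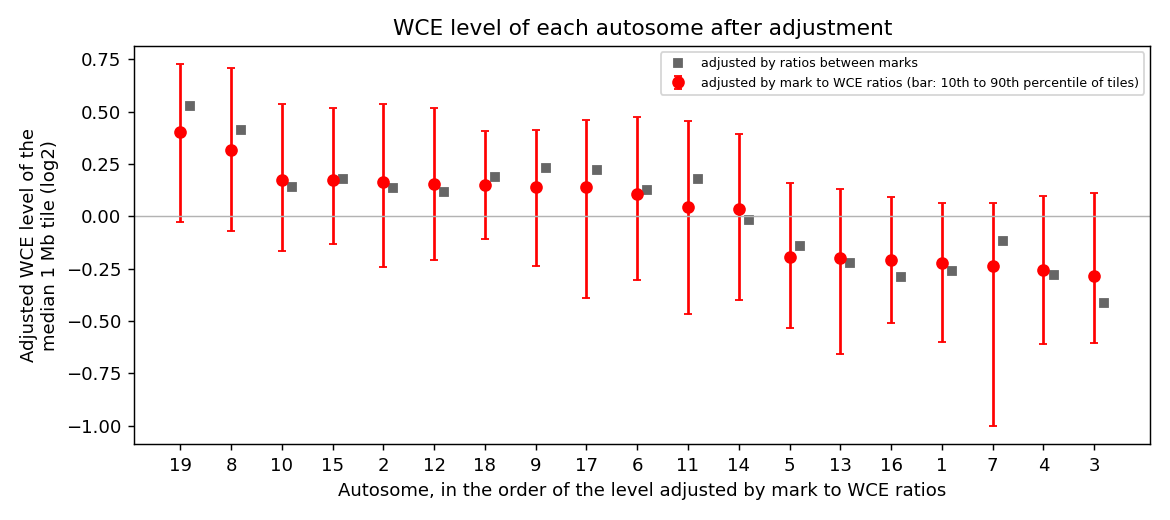
Adjusted log2 input level of the median 1 Mb tile of each autosome, by ratios of mark to input (red, bars from the 10th to the 90th percentile of tiles) and by ratios between marks (grey squares). Chromosomes 19 and 8 are highest by both, and 7 autosomes lie from -0.28 to -0.20 in red.

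The order changed for some chromosomes. Chromosome 11 went from the 2nd highest input level to rank 11 after adjustment by mark to input ratios, and chromosome 10 from rank 9 to rank 3. Chromosome 7, at 0.97 before adjustment, fell to a log2 level of -0.24, with a 10th percentile of tiles at -1.003, the widest spread of any autosome (standard deviation 0.44). Chromosome 13 lay at -0.20 by this adjustment and at -0.23 by the one between marks, and chromosome 18 at 0.15 and 0.19. Both adjusted levels fell on the same side of 0 as input for 18 of the 19 autosomes, chromosome 14 being the exception.

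Steps were placed in input alone, with a penalised partition of the log2 levels of the 1 Mb tiles into segments of at least 5 tiles. A step is a boundary where the segment medians differed by at least 0.32 on the log2 scale. The 19 autosomes fell into 33 segments, with 7 autosomes (2, 10, 12, 13, 17, 18 and 19) left whole, and 14 steps: 11 towards a higher level at higher positions and 3 towards a lower one. All 14 were held in all 3 marks, meaning the same direction and at least 0.5 of the size of the input step on the log2 scale. Over the 2106 boundaries with 5 usable tiles on both sides, 57% were past 0.32 in input, 30.5% upwards and 26.5% downwards, and 87.3% of these 1200 were held in all 3 marks. A step held in all marks is thus close to the background, and its holding is not a result about the 14. At all 14 steps every mark moved by more than input did, and the median ratio of the mean mark step to the input step was 1.57, against 1.59 over the 1200 boundaries. The larger size in the marks is thus near the background too, and is not a result about the 14.

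The largest step in size was a fall on chromosome 14 at position 79000001. The median was 1579.5 input reads per tile over 62 tiles below it and 653 over 43 tiles above it, a log2 difference of -1.27. The medians went from 1270 to 263 in H3K4me3, from 1520.5 to 396 in H3K27me3 and from 1074.5 to 362 in H3K9me3. The ratio of mean reads per tile was 0.501, with an exact binomial interval (Clopper-Pearson, 95%) of 0.495 to 0.507. The 10th to 90th percentiles, 836 to 2039 below and 450 to 1181 above, overlap. The difference was -0.69 after adjustment between marks and -0.32 after adjustment by mark to input ratios, from 0.12 to -0.20, which before rounding lies just under the limit set for a step.

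Chromosome 11 rose at position 43000001, from a median of 863 input reads over 40 tiles to 1887 over 78 tiles. The log2 difference was 1.13 in input, 1.68 in H3K4me3, 1.71 in H3K27me3 and 1.40 in H3K9me3. In the 10 tiles of 100 kb on either side, counts ran from 46 to 92 below the boundary and from 94 to 212 above it, without overlap. Counts next to the steps of chromosomes 3, 4 and 16 did not overlap either. It kept 0.65 after adjustment between marks and 0.44 after adjustment by mark to input ratios, the largest of the 14 by that measure.

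Chromosome 8 rose at position 71000001, from a median of 1123 input reads to 2053, with 61 tiles on each side. The log2 difference was 0.87 in input, 1.29 in H3K4me3, 1.15 in H3K27me3 and 1.14 in H3K9me3. The 10th to 90th percentiles were 612 to 1869 and 1002 to 3087. After adjustment it was 0.56 between marks and 0.38 by mark to input ratios. Chromosomes 8 and 11 held the only 2 of the 14 steps past 0.32 by mark to input ratios. Adjustment between marks left 10 of 14 past it, and the direction was kept at all 14. Over the 2106 scanned boundaries, 16.1% were past 0.32 by mark to input ratios and 35.7% between marks. The count of 2 of 14 is close to the first share, and 10 of 14 is above the second. Passing 0.32 by mark to input ratios is thus not by itself a result about chromosomes 8 and 11. The scanned boundaries compare fewer tiles on each side than the steps do. The 14 steps were also chosen for their size in input, and the adjusted levels keep part of input. No share of kept direction over the scanned boundaries is given. Neither 10 of 14 nor the kept direction is thus by itself a result about the steps.

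**Figure D3:**
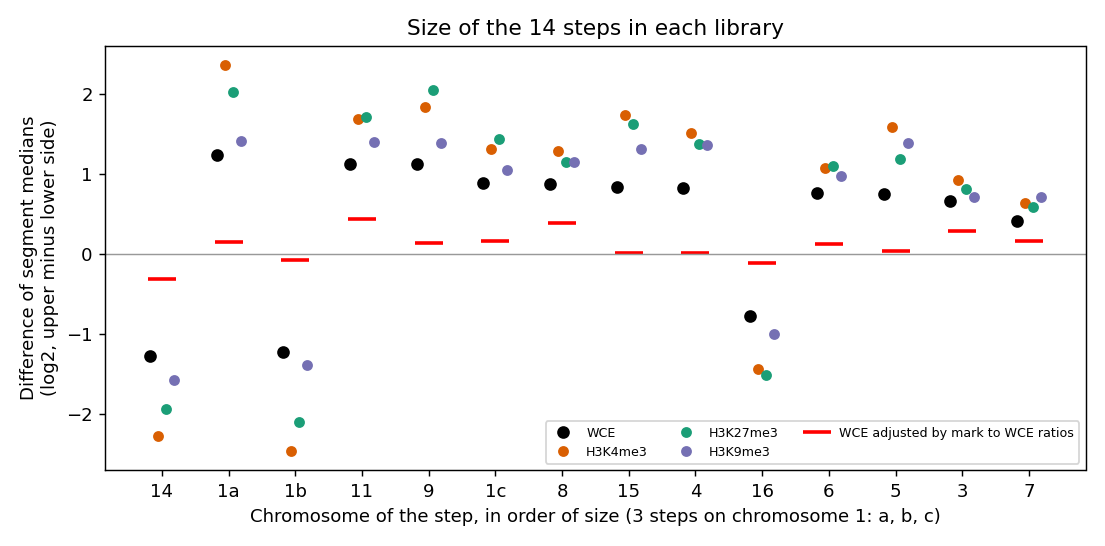
Log2 difference of the segment medians (upper minus lower side) at the 14 input steps, in input (black), the 3 marks (coloured) and input adjusted by mark to input ratios (red bars). The mark points lie further from 0 than input at each step, and the red bars lie nearest to 0, with the highest at chromosomes 11 and 8.

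Chromosome 1 held 3 steps, 2 of which bound a low stretch of 24 Mb. Its segments had medians of 617.5, 1139.5, 486.5 and 1145 input reads per tile, changing at positions 33000001, 96000001 and 120000001. The low stretch from 96000001 to 120000000 had 24 usable tiles with a 10th to 90th percentile of 430 to 718. H3K4me3 fell to a median of 184.5 there from 1016.5, H3K27me3 to 247.5 from 1060 and H3K9me3 to 297.5 from 776.5. The segments on either side of the stretch had nearly the same input level. The 2 boundaries of the low stretch were -1.23 and 1.23 on the log2 scale in input, and only the step of chromosome 14 was larger in input. After adjustment between marks they were -0.33 and 0.44, both past 0.32, and after adjustment by mark to input ratios -0.08 and 0.15. The step at 33000001 was 0.88 in input, 0.30 after the first adjustment and 0.16 after the second.

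The other 8 steps were also smaller after adjustment, by an amount that differed between the 2 adjustments. Chromosome 9 rose by 1.12 at position 20000001, from 731 to 1588.5 reads, with 0.35 left after adjustment between marks and 0.14 after adjustment by mark to input ratios. Chromosome 15 rose by 0.84 at 72000001, with 0.51 left between marks and 0.01 by mark to input ratios. Chromosome 4 rose by 0.83 at 97000001, with 0.46 and 0.01 left in the same order. Chromosome 5 rose by 0.75 at 100000001, with 0.56 and 0.04 left. The steps of chromosomes 15, 4 and 5 thus stayed past 0.32 by the first adjustment and came close to 0 by the second. On these 3 chromosomes the mean mark step was 1.71 to 1.86 times the input step, higher than at any other of the 14. Chromosome 6 rose by 0.76 at 82000001, with 0.44 left between marks and 0.12 by mark to input ratios. Chromosome 16 fell by 0.78 at 39000001, with -0.25 and -0.11 left. Chromosome 3 rose by 0.66 at 79000001, with 0.19 and 0.29 left, and there the mean mark step was 1.23 times the input step, the lowest of the 14. The smallest step was on chromosome 7 at 109000001, from 1000 to 1324 reads or 0.41, with 0.28 and 0.16 left.

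Boundaries drawn at 1 Mb did not always show as an abrupt change. In the 10 tiles of 100 kb on either side of each boundary, the input counts overlapped at 10 of the 14 steps, although the medians differed in the direction of the step at all 14. Counted on each strand alone, the log2 sizes differed by at most 0.07. On chromosome 6 at 82000001 the near tiles ran from 67 to 167 below and from 90 to 236 above, and on chromosome 5 at 100000001 from 66 to 126 below and from 89 to 174 above.

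Partitioning the adjusted levels themselves gave fewer steps. After adjustment by mark to input ratios there were 2, where 16.1% of boundaries were past 0.32. On chromosome 11 the boundary lay at 42000001, from -0.25 to 0.20, a difference of 0.45 over 39 and 79 tiles. On chromosome 8 it lay at 79000001, from 0.15 to 0.56, a difference of 0.41 over 69 and 53 tiles. In the 10 tiles of 100 kb on either side, the unadjusted input counts overlapped at both boundaries. On chromosome 11 they ran from 42 to 56 below and from 46 to 92 above. On chromosome 8 they ran from 61 to 231 below and from 80 to 128 above. The lower part of chromosome 11 was at the level of the lower group of autosomes and the upper part slightly above the level of the group of 8, whereas the lower part of chromosome 8 lay within the range of the group of 8 and the upper part above chromosome 19. With a penalty of 5 in place of 10, chromosome 3 added a step at 111000001, from -0.38 to -0.03. It was not held in all 3 marks, which were left unadjusted. After adjustment between marks there were 7 steps, on chromosomes 2, 4, 5, 8, 11, 14 and 15, where 35.7% of boundaries were past 0.32. The step on chromosome 2, at 157000001, has no boundary in the input map. On the other chromosomes the boundaries moved against the input map: to 123000001 from 97000001 on chromosome 4, to 89000001 from 71000001 on chromosome 8, to 111000001 from 100000001 on chromosome 5 and to 61000001 from 72000001 on chromosome 15. The smallest moves were to 81000001 from 79000001 on chromosome 14 and to 42000001 from 43000001 on chromosome 11.

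**Figure D4:**
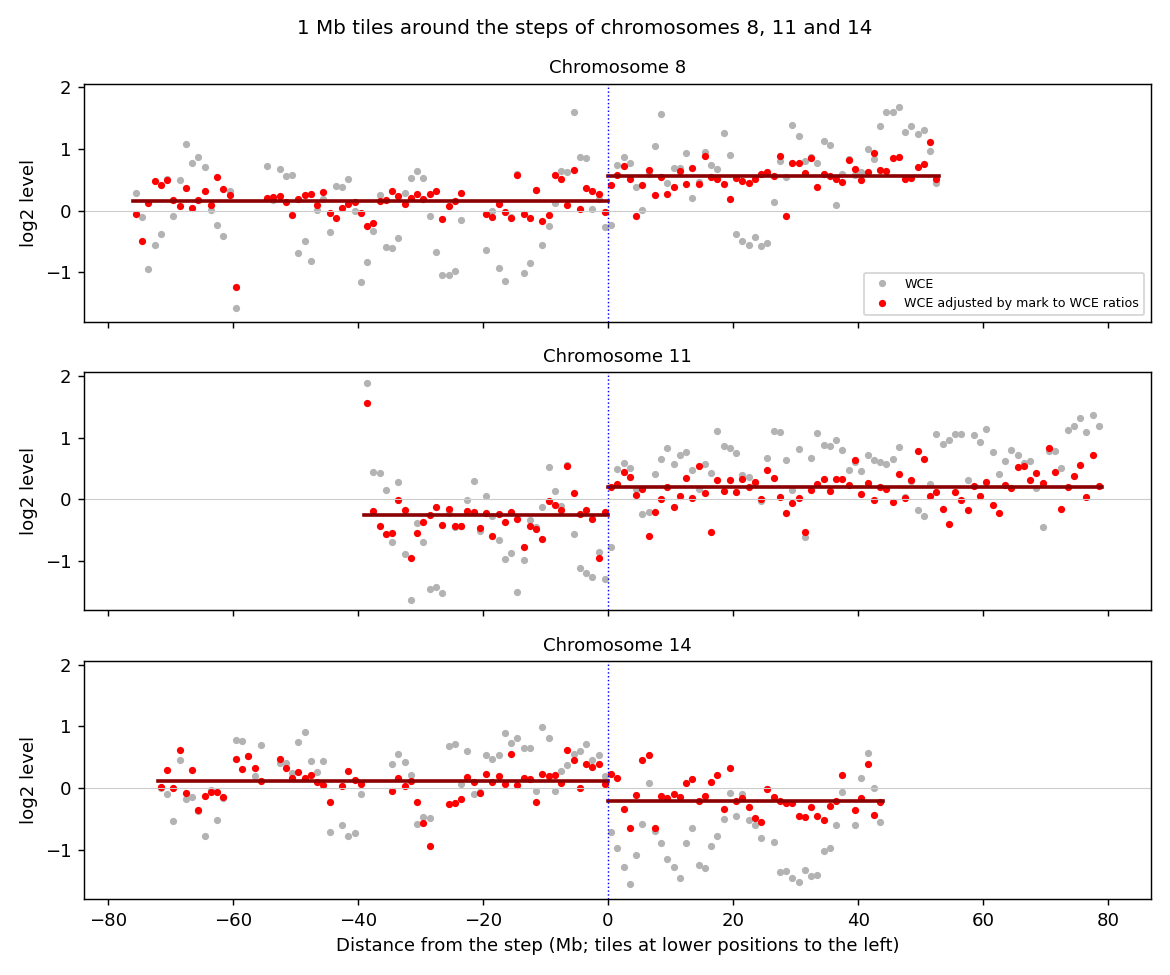
Log2 input level of each 1 Mb tile before adjustment (grey) and after adjustment by mark to input ratios (red, with the median of each side as a line) against the distance from the step in Mb. On chromosomes 8 and 11 the lines differ by 0.41 and 0.45, and on chromosome 14 by 0.32 with a wide overlap of tiles.

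Single 1 Mb tiles showed how far input departed from its median. In input 411 tiles (18.1%) had at least 1.5 times the autosomal median, and 563 (24.7%) had at most the median divided by 1.5. In H3K4me3, H3K27me3 and H3K9me3 29.9%, 29.7% and 23.9% of tiles passed the upper limit and 36.1%, 33.6% and 31.2% the lower one. Of the high input tiles 368 (89.5%) were high in all 3 marks, and of the low ones 519 (92.2%) were low in all 3. Input and the marks rose and fell together over all usable tiles (Pearson r 0.94 to 0.97). These shares are thus not by themselves a result about gains or losses. High tiles made up 53.6% of chromosome 19, 41.5% of chromosome 11, 39.3% of chromosome 8 and 0 of the 106 tiles of chromosome 13. Low tiles made up 41.7% of chromosome 3, 39.9% of chromosome 1, 38.7% of chromosome 16 and 3.57% of chromosome 19.

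After adjustment by mark to input ratios 105 tiles (4.61%) were high and 142 (6.24%) were low. High tiles made up 30.4% of chromosome 19 (17 tiles), 19.7% of chromosome 8 (24) and 8.72% of chromosome 2 (15), while chromosomes 1, 3, 4, 5, 7 and 18 held 0. The low tiles made up 19.7% of the tiles of chromosome 7 (24 tiles), 14.2% of chromosome 13 (15), 13.6% of chromosome 4 (19), 11.7% of chromosome 1 (22) and 10.6% of chromosome 3 (16). With the adjustment between marks, 257 tiles (11.3%) were high and 289 (12.7%) low.

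The highest 1 Mb tile lay at the start of chromosome 11, chr11:3000001-4000000, with 4412 input reads (exact Poisson interval 4283 to 4544), 3.68 times the median. Its first 100 kb held 2904 of them, 25.0 times the median 100 kb tile, spread over its bins, with at most 19.4% in a single 10 kb bin. It held 31.5 input reads with 2 reported positions per 100 reads with 1, and the whole 1 Mb tile 22.4, against 5.88 over the autosomes. Here and below, a read with 2 positions is counted at each listed position, so 1 read can count 2 times. The marks stood at 30.97, 25.7 and 37.7 times their own medians in the same 100 kb, and the 1 Mb tile kept a log2 level of 1.56 after adjustment by mark to input ratios. The next 4 tiles were chr19:5000001-6000000 with 3850 reads, and on chromosome 8 the tiles from 125000001, 123000001 and 73000001 with 3841, 3643 and 3624. All 4 were higher in H3K4me3 (4.60 to 10.84 times its median) and in H3K27me3 (3.29 to 5.83 times) than in input (3.02 to 3.21 times). H3K9me3 was above input at the chromosome 8 tiles (3.50 to 3.71 times its median) and below it at the chromosome 19 tile (3.12 times).

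The lowest usable tiles were chr6:69000001-70000000 with 244 reads, chr1:119000001-120000000 with 246, chr13:61000001-62000000 with 256, and chr4:143000001-144000000 and chr7:85000001-86000000 with 279 each. They held 36.6 to 119 input reads with 2 reported positions per 100 reads with 1, so reads with a second site were far more common there. H3K4me3 was lower still, at 0.10 to 0.14 of its median, while input was at 0.20 to 0.23. Their log2 levels after adjustment by mark to input ratios ran from -1.58 to -1.02.

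Among 100 kb tiles the tallest was chr17:39400001-39500000, with 3159 input reads, 27.2 times the median. A single 10 kb bin from 39450001 held 99.0% of them, 29.3% of the reads listed in the tile repeated a position already seen, and it held 22.2 reads with 2 positions per 100 with 1. The tile stood at 23.9 times the median in H3K4me3, 41.7 in H3K27me3 and 40.2 in H3K9me3. Tile chr2:98400001-98500000 had 724 reads, 94.5% of them in the bin from 98460001, 57.4% of its listed reads were repeats, and it held 116 reads with 2 positions per 100 with 1. Tile chr9:3000001-3100000 had 699 reads, 34.0% in 1 bin, with 33.3% repeats and 92.4 reads with 2 positions per 100 with 1. Tile chr8:87600001-87700000 differed from these: it had 582 input reads, with 15.98% in its busiest bin, 5.67% repeats and 0.687 reads with 2 positions per 100 with 1, and H3K4me3 there was 28.6 times its median against 5.02 in input.

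Tiles of 100 kb with no input read were few and grouped in runs. Of 24044 such tiles beyond the chromosome starts 283 (1.18%) had 0 reads, in 82 runs flanked by tiles with reads, 34 of them a single tile. A count of 0 allows up to 3 reads, which is 2.59% of the median tile. Chromosome 7 held 68 of the empty tiles (24.0%) in 18 runs, and chromosomes 9, 11, 15 and 18 held none. In 42 runs (144 tiles) the marks also had 0 reads with 1 position. In the other 40 runs the 3 marks had at most 12 such reads in a run and 170 in all, 45 in H3K4me3, 59 in H3K27me3 and 66 in H3K9me3.

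The longest runs spanned up to 2100 kb. They were chr2:174900001-177000000, chr1:85300001-87300000, chr8:20500001-22400000, chr8:56700001-58300000 and chr7:20500001-22000000. Then came chr7:22100001-23000000, chr5:25500001-26300000, chr5:94800001-95600000, chr7:19300001-20100000, chr7:38300001-39000000, chr12:23500001-24200000 and chr4:42100001-42700000. Of these 12, which hold 144 of the 283 empty tiles, 9 held input reads with 2 reported positions, from 1 in the run on chromosome 7 from 20500001 to 41 in the run on chromosome 2. The tiles next to the runs were sparse too: the run on chromosome 2 was flanked by tiles of 4 and 3 reads, and the chromosome 8 run from 56700001 by tiles of 10 and 10.

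Reads with 2 positions separate runs with sequence that occurs elsewhere from runs with no placed read at all. Of the 82 runs 71 held such reads in some library, and 55 held more than 3 of them in input. The other 11 runs (64 tiles, 100 to 1900 kb each) held no read of either kind in any library. They include chr8:20500001-22400000, chr8:56700001-58300000, chr5:25500001-26300000 and chr13:92500001-93100000. Without an assembly at hand, an unsequenced gap, sequence repeated more than 2 times and a deletion cannot be told apart in these runs.

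In only 4 runs did both neighbouring tiles reach at least 0.5 of the median tile. The run chr13:92500001-93100000 lay between tiles of 89 and 83 reads, with no input read over 656 kb and no read of any library over 655.6 kb. The single tiles chr1:157900001-158000000 and chr19:6700001-6800000 lay between tiles of 102 and 115 and of 203 and 60 reads, with no input read over 133 and 201 kb. These 3 runs had no read of either kind in any library. The fourth, chr17:63900001-64300000, lay between tiles of 167 and 138 reads and held 216 input reads with 2 positions.

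**Figure D5:**
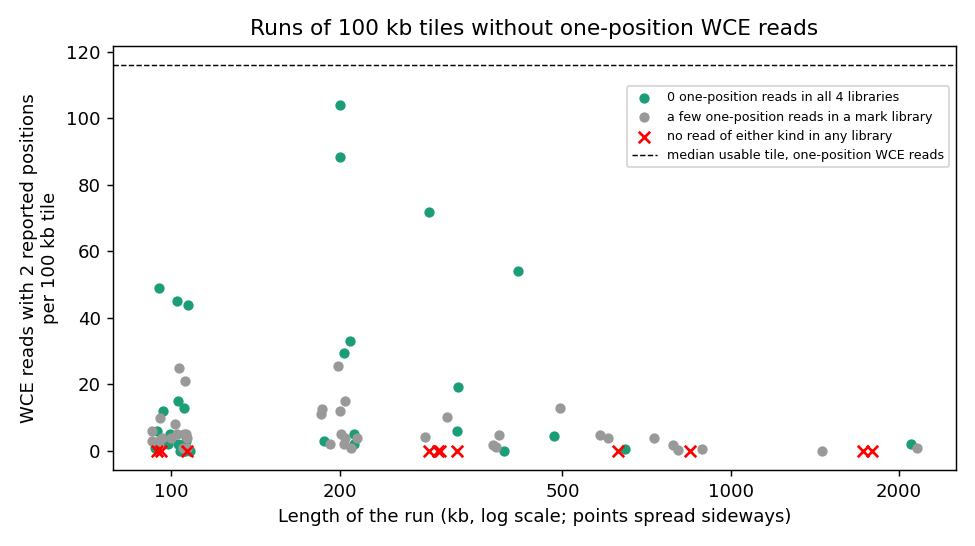
Input reads with 2 reported positions per 100 kb tile (vertical axis) against the length of each of the 82 runs without one-position input reads (kb, log scale, points spread sideways). Crosses mark the 11 runs without a read of either kind in any library, and the highest run reaches 104 reads per tile, near the dashed line of the median usable tile at 116.

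The second positions of these reads were followed for the 24 runs with at least 20 of them. In 8 runs at least 20 reads paired with 1 stretch at a constant offset, or a constant sum of positions where the order is inverted, and all 8 partners lay on the same chromosome. In any of the 24 runs at most 8 reads shared a constant offset to another chromosome. In the run chr13:17700001-18000000, 137 of 216 listed positions paired with an inverted partner within 17733419 to 18007545. In chr4:31700001-31900000, 100 of 177 paired with an inverted partner within 31710300 to 31892676. Both partners overlap the run itself. In chr2:174900001-177000000, 30 of 41 paired with an inverted partner within 176525366 to 176884724, which lies in the run. Where partner and run overlap, 1 read can be counted at both of its positions, so these counts are not numbers of separate reads.

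Partners outside the run were found at short and at long range. In chr14:117800001-118000000 56 of 208 listed positions paired with 118074830 to 118116531 in the same order, in chr4:20100001-20200000 35 of 49 paired with 19966816 to 20001902, and in chr7:59600001-59700000 23 of 45 paired with 59999779 to 60029524. The widest separation was on chromosome 17, where 75 of the 216 listed positions of the run from 63900001 paired with an inverted partner at 93136891 to 93189167. Separately, 38 of 66 listed positions of the run chr17:93200001-93400000 paired with 64044949 to 64110487. That pairing was in the same order, so it is not the reverse of the inverted one. Such pairs are inferred from read positions in the mm8 assembly: they point to near-identical sequence there, and whether the cells hold more copies than the assembly was not tested.

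Pooled over the 4 libraries, 108 autosomal intervals of at least 100 kb had no read with 1 position, and together they cover 33.1 Mb. Of these 13 reached 500 kb (14.5 Mb) and 5 reached 1000 kb (9.25 Mb).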

How the data were processed

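The authors deposited, for each library, lists of signed read positions (minus for the reverse strand), with no counts per region. Per the file headers, reads were aligned to mm8 with Bowtie (options e 70, k 2, m 2, n 2, l 36), which the submitters' processing notes also name; its version is not given in the sources used here. Reads with 1 reported position were kept, once per position and strand, at the position as listed. Repeated positions were 5.93% to 8.38% of listed autosomal reads. Tiles, limits and the partition (penalty 10 times the squared noise between neighbouring tiles times the natural log of the tile number) were chosen with earlier results of these data known. The partition and both adjustments were also run on simulated tiles. The slopes of the simulated marks were set close to those found here, so that run does not check the adjustments beyond that setting. Text names every step, the 12 longest empty runs, the 5 highest and 5 lowest usable 1 Mb tiles, the 5 highest 100 kb tiles, and all autosomes; other empty runs named (those with both neighbours well covered, without any read, or with a paired partner) were chosen after their values were seen. The adjustment by mark to input ratios, alone and with a penalty of 5, was added after seeing the data. Computation used numpy 2.4.6 and scipy 1.17.1 under Python 3.11.15, with plots from matplotlib 3.10.9.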

Additional observations from a re-analysis of the deposited data

Results flagged for a closer look

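Reads with 2 reported positions, which the map itself does not use, were present in stretches where input had no read with 1 position. Such input reads had 1857 listed positions in the 82 empty runs. Among the 12 longest runs, those with more than 3 were the run on chromosome 2 from 174900001 with 41, on chromosome 12 from 23500001 with 27, on chromosome 4 from 42100001 with 23, on chromosome 1 from 85300001 with 19, on chromosome 5 from 94800001 with 15, and those on chromosome 7 from 22100001 and from 38300001 with 5 each. A read with 2 positions is listed at both, so a count in a run can stem from the other position. A read with both positions in these runs is counted at each, so the counts are not numbers of separate reads.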

How the results depend on the processing

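Of 54 values under alternative settings, 28 were counts within 1.5 times the reported one or ratios within its counting interval, and 26 were not. The 14 steps, all held in all 3 marks, became 63 (63 held) with 500 kb tiles, 41 (41) with a penalty of 5, 3 (3) with a penalty of 20, 7 (7) after adjustment between marks, 2 (2) after adjustment by mark to input ratios, and 3 (2) after that adjustment with a penalty of 5. The marks were not adjusted, so in the adjusted maps their unadjusted differences were set against the adjusted input step. No share of holding over all boundaries was computed for these settings, so holding there is not a result about the steps. With every tile that had an input read kept, 20 steps were drawn and 17 held. How many steps are drawn thus depends on tile size and penalty. The 411 high tiles became 257 after adjustment between marks, 105 after adjustment by mark to input ratios and 94 with a 2-fold limit. The 563 low tiles became 289, 142 and 262 under the same settings. The 283 empty tiles became 151 with reads of 2 positions added and 762 with 50 kb tiles, and 424 tiles had at most 3 reads. The ratio of the highest to the lowest autosome, 2.07, was 2.09 with reads of 2 positions added, 2.04 with counts divided by the share of covered bins, 1.92 after adjustment between marks, 1.61 after adjustment by mark to input ratios, 2.03 with means for medians, and 2.13 beyond the first 10 Mb; chromosome 19 was the highest in each. The cause of these changes was not tested. The 2 adjustments remove real copy number where it goes along with the ratios of the marks, and base composition was not measured. A median 1 Mb tile of 1200 reads limits the map to long stretches, and gains in part of the cells cannot be told apart from smaller whole gains. No paired analysis was possible because each group holds 1 library.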
